A study of Saccharomyces cerevisiae with 4 samples.

Results

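Budding yeast nucleosomes that were listed on top of one another are described here. In each deposited table the listed nucleosomes were sorted along the chromosome, and a nucleosome was taken when it started at least 20 bp before the preceding one ended, together with that preceding one. The members were thus chosen by the listed starts and ends, measured values from the same reads as the counts, while gene position and count had no part in the choice. By this rule 41090 of 118231 listed nucleosomes overlapped a neighbour, 20641 of 57674 in the nhp6ab table and 20449 of 60557 in the WT table. They formed 11549 overlapping pairs in nhp6ab and 11538 in WT.

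The study profiled histone H4 acetylated at lysine 16 (H4K16ac) by chromatin immunoprecipitation and sequencing. It compared Saccharomyces cerevisiae cells labelled nhp6ab with WT cells, 2 libraries for each genotype. Both strains grew exponentially in YPD, a rich glucose medium, and chromatin was cross-linked with formaldehyde and sheared by sonication before an anti-H4K16Ac antibody was applied. The name nhp6ab stands for NHP6A and NHP6B, but the labels give neither the alleles nor the strain background of either genotype. The 2 libraries of a genotype share 1 table with 1 read count per nucleosome, so nothing below carries a replicate error or a test between genotypes. All intervals are 95% intervals of counting error alone, and those of shares treat each nucleosome as independent though overlapping ones come at least in pairs.

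A nucleosome wraps DNA around a histone octamer, and a stretch of DNA held by one nucleosome core cannot be wrapped in full by another at the same moment. Listed positions that claim the same DNA are therefore usually read as alternatives used in different cells of a culture. In yeast the first nucleosome of a gene sits at a preferred place beside a nucleosome-free promoter, and the array behind it loses its phase with distance. NHP6A and NHP6B encode small HMGB-type proteins that bend DNA, bind nucleosomes and work with the histone chaperone FACT. H4K16ac is laid down by the SAS and NuA4 acetyltransferases and removed by Sir2, and it is low in silenced chromatin.

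The nhp6ab table summed to 20293261 counts and the WT table to 26526939, with a median of 354 counts per listed nucleosome in nhp6ab and 442 in WT. Listed nucleosomes were 120 to 160 bp wide in both tables. The full 160 bp was reached by 42.7% of them in nhp6ab and by 57.6% in WT. Genotype, total count and listed width differed together between the tables and cannot be told apart as sources of a difference between them. In the NHP6A ORF itself 1 nucleosome midpoint was listed in each table, with 260 counts in nhp6ab and 592 in WT, and WT listed another of 693 counts 20 bp before its start. From 500 bp upstream to the ORF end, NHP6A had 4 nucleosomes in each table, none overlapping another by 20 bp. In the NHP6B ORF 2 were listed in each table and overlapped, with 314 and 250 counts in nhp6ab and 335 and 547 in WT. Neither ORF was thus without reads in nhp6ab, and with no allele structure given these counts do not check the label.

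Overlapping positions made up a slightly larger part of the nhp6ab table. Their share was 35.8% of listed nucleosomes in nhp6ab (35.4 to 36.2) and 33.8% in WT (33.4 to 34.1), 2.02 percentage points apart. They carried 34.4% of all counts in nhp6ab and 31.9% in WT. The number of overlapping positions was close, 192 more in nhp6ab than in WT, while nucleosomes without such an overlap numbered 37033 in nhp6ab and 40108 in WT, a difference of −7.67% of the WT number. The order of the shares rests on the overlap chosen. At 10 bp or more the shares were 50.5% in nhp6ab and 50.8% in WT, a difference of −0.34 points. With midpoints in place of the listed edges, so that the listed width has no part in the rule, they were 38.7% and 34.3% in nhp6ab and WT, 4.46 points apart.

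No listed neighbours in either table overlapped by more than 49 bp, and no midpoints were closer than 71 bp. The limits were the same in nhp6ab and WT, and whether the calling of nucleosomes set them was not tested. Closer alternatives may therefore be missing from both lists. The median overlap of a pair was 30 bp in nhp6ab (quartiles 25 and 35) and 29 bp in WT (quartiles 24 and 35). The partners' midpoints lay a median of 113 bp apart in nhp6ab and 115 bp apart in WT, with 140 bp the most in both. Other neighbours had medians of 174 bp in nhp6ab and 172 bp in WT. With widths of at most 160 bp, the 20 bp rule itself keeps the midpoints of a pair within 140 bp, which is closer than the length of DNA in 1 nucleosome core. Neighbours closer than that length numbered 20677 in nhp6ab and 20653 in WT, and the 20 bp rule took 55.9% of them in each table. Just inside the rule, at overlaps of 20 to 24 bp, were 2671 pairs in nhp6ab and 2935 in WT, with a median sum of 679 counts in nhp6ab and 832 in WT. Just outside it, at 15 to 19 bp, were 2640 pairs in nhp6ab and 3224 in WT, with median sums of 692 and 857 counts in nhp6ab and WT.

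**Figure D1:**
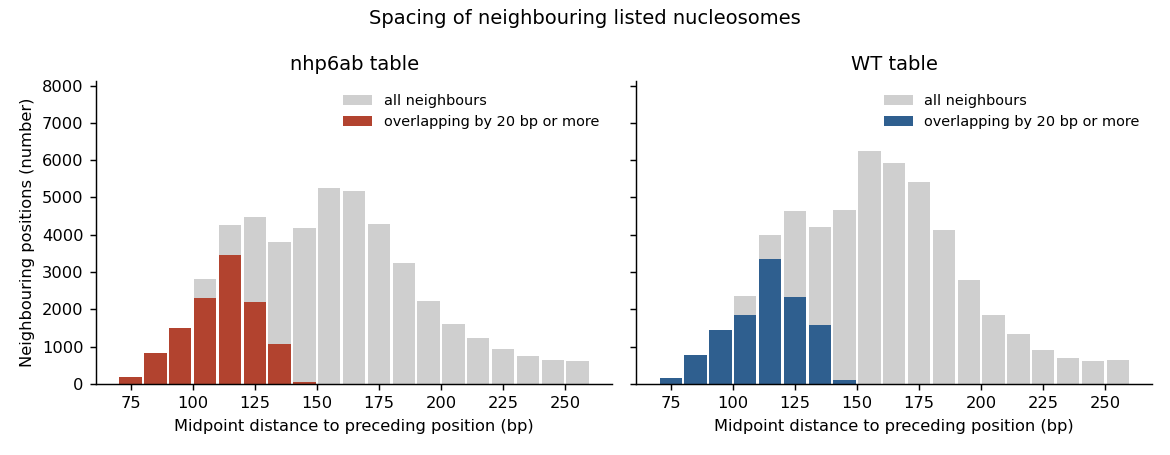
Number of neighbouring listed nucleosomes by the distance between their midpoints (bp, 10-bp bins), nhp6ab table left and WT table right. Grey bars stand for all neighbours and coloured bars for pairs that overlap by 20 bp or more; pairs filled the left shoulder of the distribution, around a median of 113 bp in nhp6ab and 115 bp in WT.

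Most alternatives came as isolated pairs. Of 9092 unbroken runs of overlapping positions in nhp6ab, 7232 (79.5%) held 2 positions, against 6967 of 8911 (78.2%) in WT. Runs of 3 numbered 1397 in nhp6ab and 1443 in WT, and runs of 4 numbered 373 and 369 in nhp6ab and WT. The longest runs held 9 positions in either table, 1 run in nhp6ab and 2 in WT, and the genes under the WT runs are named here after their values were seen. They lay in LYS2 (YBR115C, chromosome II, 471916 to 472921), an enzyme of lysine synthesis, and at CUP9 (chromosome XVI, 213023 to 214031), a transcriptional repressor. The run in LYS2 had between 277 and 437 counts per position, median 329, and that at CUP9 between 206 and 392, median 263. Over the same stretches nhp6ab listed 8 nucleosomes in LYS2, of which 5 overlapped, and 7 at CUP9, of which 4 overlapped.

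The share of overlapping positions grew from the start of genes into their bodies. It was low over the first 500 bp of open reading frames (ORFs), at 28.1% in nhp6ab and 25.8% in WT, and within 500 bp upstream of ORFs, at 28.8% in nhp6ab and 25.3% in WT. Between 500 and 1000 bp into ORFs it was 39.3% in nhp6ab and 36.6% in WT, and beyond 1000 bp it was 43.2% and 42.2% in nhp6ab and WT. Nucleosomes in RNA genes, 474 in nhp6ab and a similar number in WT, overlapped in 25.3% of cases in nhp6ab and 24.95% in WT. Of all overlapping positions, 40.7% in nhp6ab and 42.7% in WT lay beyond 1000 bp, while 29.9% of the remaining nucleosomes in nhp6ab and 29.8% in WT did. Upstream of ORFs lay 8.82% of overlapping positions in nhp6ab and 8.74% in WT, against 12.1% of the remaining nucleosomes in nhp6ab and 13.2% in WT. Among nucleosomes of the full 160 bp, the share was again higher beyond 1000 bp, at 33.9% in nhp6ab and 30.1% in WT, than in the first 500 bp, at 22.2% and 18.8% in nhp6ab and WT.

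Counted from the ORF start, the first listed nucleosome was overlapping in 20.9% of 5664 ORFs in nhp6ab and in 18.4% of 5669 in WT. The share was 29.0% for the second nucleosome in nhp6ab and 25.3% in WT, 36.6% for the fourth in nhp6ab and 33.8% in WT, and 46.2% for the tenth in nhp6ab and 44.5% in WT. The last nucleosome of ORFs with at least 5 was overlapping less often than the fourth, at 30.4% in nhp6ab and 27.6% in WT. In ORFs of at least 3000 bp the share over the final 100 bp was 32.8% in nhp6ab and 29.3% in WT, against 45.3% and 45.5% in nhp6ab and WT at 500 to 600 bp before the end. Both ends of genes thus held fewer alternatives than the interior.

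**Figure D2:**
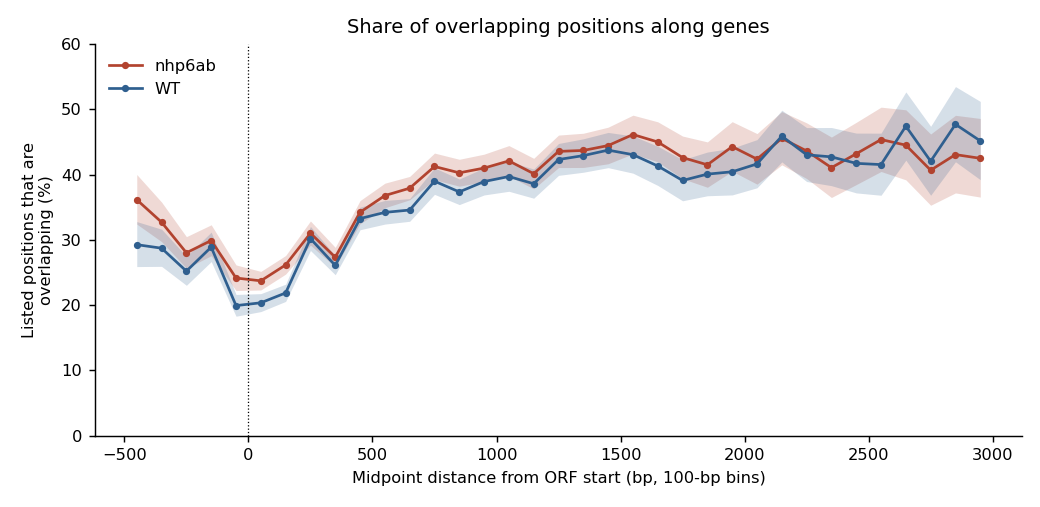
Percent of listed nucleosomes that overlapped a neighbour, by distance of the midpoint from the ORF start along the gene (bp, 100-bp bins; the dotted line marks the start), with shaded 95% counting intervals. Both curves are lowest around the start and come to about the same level beyond 1000 bp, where the share was 43.2% in nhp6ab and 42.2% in WT.

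Along genes, the difference between the tables was uneven. In the first 250 bp of ORFs the share was 25.9% in nhp6ab (24.9 to 26.8) and 22.3% in WT (21.4 to 23.2), 3.60 points apart (2.31 to 4.90). At an overlap of 10 bp or more these shares were 40.1% in nhp6ab and 38.9% in WT, 1.19 points apart (−0.29 to 2.67), at 40 bp the difference was 0.59 points (0.19 to 0.98), and by midpoints it was 5.85 points (4.59 to 7.12). Between 500 and 250 bp upstream it was 33.3% in nhp6ab (31.3 to 35.3) and 28.5% in WT (26.7 to 30.3), 4.79 points apart, and in the last 250 bp before the ORF the difference was 2.82 points. It was 0.83 points at 250 to 500 bp into ORFs, 2.68 at 500 to 1000 bp and 2.05 at 1000 to 2000 bp. Farther in, the sign turned, with −0.32 points at 2000 to 3000 bp and −2.46 points beyond 4000 bp, where the share was 44.2% in nhp6ab (41.5 to 46.9) and 46.7% in WT (44.1 to 49.3), intervals that overlap. Over all positions at least 2000 bp into ORFs the difference was −0.95 points (−2.55 to 0.65), and it was −2.60 (−4.20 to −1.01) at an overlap of 10 bp, 0.03 at 40 bp and 0.30 by midpoints, so its direction rests on the rule. Low counts moved with the upstream difference, as 10.2% of the overlapping positions within 500 bp upstream of ORFs in nhp6ab had fewer than 100 counts, against 0.34% in WT. Among nucleosomes of at least 100 counts there, 27.7% overlapped in nhp6ab and 25.3% in WT.

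At finer scale the overlapping share ran opposite to the nucleosome array. Listed midpoints peaked 0 to 20 bp into ORFs, with 1054 in nhp6ab and 1082 in WT, and there the overlapping share was 18.7% in nhp6ab and 14.8% in WT. At the next peak, 160 to 180 bp, it was 22.7% in nhp6ab and 18.5% in WT, and at 320 to 340 bp 211 of 844 overlapped in nhp6ab and 205 of 866 in WT. Between the peaks it was higher, 35.6% in nhp6ab and 29.9% in WT at 220 to 240 bp, and 41.0% and 39.7% in nhp6ab and WT at 400 to 420 bp. Positions off the array's own places were thus more often overlapping ones. A pair cannot have both partners at a single array place, so part of this contrast is built into the rule.

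**Figure D3:**
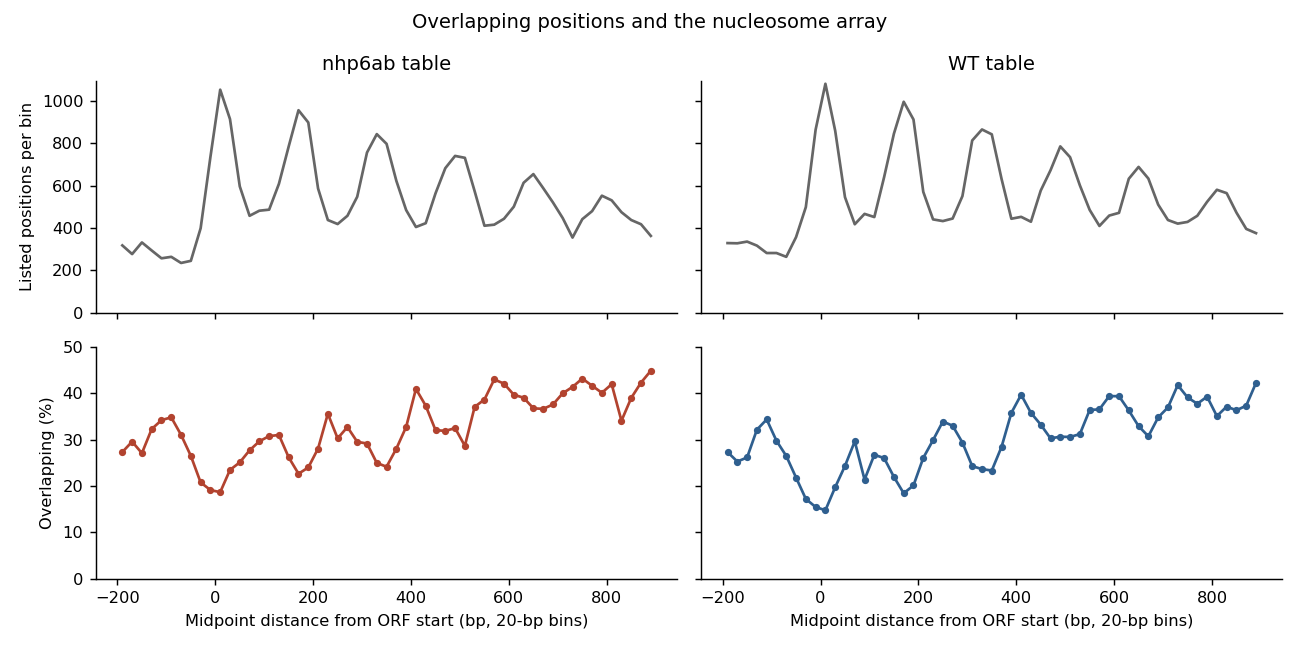
Listed nucleosomes per 20-bp bin (upper panels) and percent of them that overlapped a neighbour (lower panels) by midpoint distance from the ORF start (bp), nhp6ab left and WT right. The overlapping share dips where the number of listed nucleosomes peaks, to 18.7% in nhp6ab and 14.8% in WT at 0 to 20 bp.

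Between genes, divergent and tandem regions had a higher overlapping share in nhp6ab than in WT, while in convergent regions the intervals of the tables overlap. In divergent regions, which hold the promoters of both flanking genes, the overlapping share was 30.3% in nhp6ab (28.8 to 31.8) and 26.0% in WT (24.7 to 27.4). Tandem regions had 30.3% in nhp6ab and 26.5% in WT. Convergent regions, which hold no promoter of either flanking gene, had 25.5% in nhp6ab (22.7 to 28.4) and 29.3% in WT (26.6 to 32.1), the opposite order with overlapping intervals. The difference between region types was not tested, and region types were not compared at other overlaps. Among the 16 chromosomes the share lay between 33.7% and 37.6% in nhp6ab and between 30.8% and 35.7% in WT. Within 10 kb of chromosome ends, where Sir proteins deacetylate H4K16, the share was 31.5% in nhp6ab (27.3 to 36.1) and 35.8% in WT (31.3 to 40.5), against 35.8% and 33.6% in nhp6ab and WT beyond 30 kb. The subtelomeric classes held 447 nucleosomes in nhp6ab and 436 in WT, and their intervals overlap.

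Overlapping positions were listed with somewhat fewer reads than the other nucleosomes of their table. The median was 339 counts in nhp6ab (quartiles 272 and 406) and 412 in WT (quartiles 335 and 493), against 362 and 457 for the remaining nucleosomes of nhp6ab and WT. The ratio of medians was 0.936 in nhp6ab and 0.902 in WT. Listed width moved with this result. Overlapping positions had a median width of 146 bp in nhp6ab and 152 bp in WT, and the remaining nucleosomes 158 bp and 160 bp in nhp6ab and WT. Among nucleosomes of 120 bp, overlapping positions had a median of 289 counts in nhp6ab and 351 in WT, and the remaining ones 285 and 344 in nhp6ab and WT, ratios of 1.01 and 1.02. Among those of 160 bp the medians were 389 counts in nhp6ab and 472 in WT for overlapping positions and 391 and 483 for the remaining ones in nhp6ab and WT. Within a width, over all positions, an overlapping nucleosome therefore had nearly the counts of any other. In RNA genes the order was the opposite. Overlapping positions there had medians of 336.5 counts in nhp6ab and 400 in WT, against 161.5 and 223 for the remaining ones. Among those of 160 bp in RNA genes the medians were 366 against 87.5 in nhp6ab and 436 against 175 in WT. Width also went with membership itself, since 53.6% of 120-bp nucleosomes overlapped in nhp6ab and 59.3% in WT, against 27.3% and 23.5% of 160-bp ones in nhp6ab and WT.

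The partners of a pair had similar counts. The lower partner held a median of 45.8% of the pair's counts in nhp6ab and 45.9% in WT, and 46.0% and 46.2% between other neighbours closer than 250 bp in nhp6ab and WT. Partners more than 2-fold apart made up 225 pairs (1.95%) in nhp6ab and 141 (1.22%) in WT. The same inequality was found in 2.73% of other neighbours in nhp6ab and 2.20% in WT. Within ORFs the partner nearer the gene start had the higher count in 51.9% of 9568 pairs in nhp6ab and in 52.8% of 9601 in WT, and so it was in 51.5% and 52.5% of other neighbours in nhp6ab and WT. Since a read in the overlap can count for both partners, near-equal counts are in part built in.

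Alternative positions were listed at the same place in both tables less often than other nucleosomes. Positions were matched when their midpoints lay within 20 bp and each was the other's nearest. Of overlapping positions, 50.2% in nhp6ab had a match in WT (49.6 to 50.9), against 70.5% of the remaining nucleosomes (70.1 to 71.0). Of overlapping positions in WT, 48.9% had a match in nhp6ab, against 66.0% of the remaining ones. Among 160-bp nucleosomes the matched shares were 61.9% for overlapping and 75.3% for other positions in nhp6ab, and 60.05% and 70.1% for overlapping and other positions in WT. Crowded positions offer more candidates for a nearest neighbour, and how far that lowers mutual matching was not tested.

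Whole pairs were shared less often still, which is largely built in, since both partners must be matched and overlap in the other table. Both partners were matched by an overlapping pair of the other table for 1914 pairs, 16.6% of the pairs of either table. For a further 9.75% of nhp6ab pairs and 10.3% of WT pairs both partners were matched but overlapped by less than 20 bp in the other table. Spacing and listed width both enter that overlap. One partner was matched in 45.0% of nhp6ab pairs and 41.5% of WT pairs. In 24.7% of nhp6ab pairs and 26.0% of WT pairs neither partner was matched and the other table listed a single nucleosome between them. Other neighbours closer than 250 bp had both positions matched in 48.0% of cases in nhp6ab and 42.3% in WT, against 26.3% and 26.9% of overlapping pairs in nhp6ab and WT. The shared part was similar across gene positions, 15.3% of nhp6ab pairs and 15.99% of WT pairs upstream of ORFs, and 16.2% and 15.2% of nhp6ab and WT pairs beyond 1000 bp.

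The 1914 shared pairs had nearly the same counts in both tables once scaled to the table totals. A shared pair summed to a median of 695 counts in nhp6ab and 861 in WT, a median log2 ratio of 0.07 of nhp6ab over WT (quartiles −0.08 and 0.23). Chromosome XII, which carried more counts in the nhp6ab table throughout, held 184 of them with a median of 0.44, and the others had 0.05. A pair was called when its log2 ratio was at least 1 in size with a counting interval that excludes 0. By that rule 1 shared pair was higher (0.0522%) and 15 were lower (0.784%) in nhp6ab, close to the background of all 36492 singly matched nucleosomes, of which 0.208% were higher and 0.652% lower. The called share of shared pairs was thus near the background. The partner with the higher count was the same in both tables in 1372 of the 1914 pairs (71.7%), and the share of the first partner moved by a median of 3.45 percentage points.

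The lowest ratios belonged to pairs with few counts in nhp6ab. In YKR041W (chromosome XI, 518198 to 518950), about 435 bp into the ORF, the partners had 46 and 40 counts in nhp6ab, against 296 and 302 in WT, a log2 ratio of −2.41 (−2.75 to −2.08). Upstream of CIN1 (YOR349W, chromosome XV, ORF 989789 to 992833), which encodes a tubulin-folding factor, they had 32 and 40 counts in nhp6ab, against 326 and 148 in WT, −2.33. An intergenic pair on chromosome V (284658 to 284911 in nhp6ab) had 23 and 24 counts in nhp6ab and 135 and 108 in WT, −1.98. Upstream of YDL022C-A (chromosome IV) the partners had 41 and 20 counts in nhp6ab and 150 and 110 in WT, −1.71, and one of them lay in an RNA gene. These partners were both low in nhp6ab, so the whole stretch and not 1 alternative was low there. PDR5 (YOR153W, chromosome XV, 619840 to 624375), a multidrug ABC transporter, had a pair late in its ORF with 56 and 60 counts in nhp6ab and 220 and 196 in WT, −1.46 (−1.77 to −1.16), and it held a second lower pair nearer its start.

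Of the 15 lower pairs, named after their values were seen, those upstream of TDH3, the main glyceraldehyde-3-phosphate dehydrogenase, RPL34B, a protein of the large ribosomal subunit, FTR1, an iron permease, ATG27, an autophagy membrane protein, and YOR302W had both partners in upstream DNA. At TDH3 (YGR192C) the partners had 55 and 59 counts in nhp6ab and 215 and 159 in WT. Once nucleosomes under 100 counts were removed before pairing, 1 lower pair remained in place of 15. The only pair called higher lay in FAS1 (YKL182W, chromosome XI, 100671 to 106826), the beta subunit of fatty acid synthase, 1449 bp into its ORF. Its partners had 232 and 331 counts in nhp6ab and 168 and 172 in WT, a log2 ratio of 1.11 (0.92 to 1.31). The next pair along FAS1 shares a position with it and had 0.97. RPO21, the largest subunit of RNA polymerase II, followed with 170 and 149 counts in nhp6ab and 104 and 115 in WT, 0.93. HSU1, at 0.98, and EXG1, a cell wall glucanase, at 0.89, lie on chromosome XII, where shared pairs had a median of 0.44. How far that shift enters their ratios was not tested.

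Some shared pairs kept both positions but tipped toward the other partner. At NHP6B itself (YBR089C-A, chromosome II, 426190 to 426489) the partner of lower coordinate held 55.7% of the pair's counts in nhp6ab and 37.98% in WT, from 314 and 250 counts in nhp6ab and 335 and 547 in WT. In RSP5 (YER125W), a ubiquitin ligase, the partners had 266 and 168 counts in nhp6ab and 295 and 376 in WT, 17.3 points in the same direction. In YMR317W, FAS2 (alpha subunit of fatty acid synthase) and RSC9 (a subunit of the RSC remodeler) the first partner's share was 16.5, 15.6 and 15.5 points higher in nhp6ab. It was lower in nhp6ab upstream of CIN1, by a difference of −24.3 points, and the differences were −17.8 in BNR1, a formin, −17.3 in SCP160, an RNA-binding protein of polysomes, −16.1 in MHP1, a microtubule-associated protein, and −15.9 in YMR103C. In BNR1 (YIL159W) the partners had 251 and 352 counts in nhp6ab and 450 and 307 in WT, so the higher partner was a different one in each table. These are the extremes of 1914 pairs, and no replicate shows how far such shares move between cultures.

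Per gene, alternatives were common and their number varied widely between the tables. Counting pairs from 500 bp upstream to the end of each ORF, 4392 of 6002 nuclear protein-coding genes (73.2%) held a pair in nhp6ab and 4269 (71.1%) in WT, and 3586 held one in both. More pairs were listed in nhp6ab for 2077 genes, fewer for 1946, and the same number for 1979. A difference of at least 3 pairs occurred in 430 genes toward nhp6ab and in 415 toward WT. Among 1252 genes of at least 2000 bp, the overlapping share had a median of 37.5% in nhp6ab and 35.3% in WT. Across these genes the shares of the tables had a Pearson correlation of 0.27 and a Spearman correlation of 0.26, which are descriptions over genes that share sequence and mapping.

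Long genes held the most pairs. REA1 (YLR106C, chromosome XII, 349006 to 363738), the AAA ATPase that matures the large ribosomal subunit, had 24 in nhp6ab and 25 in WT. ACC1 (YNR016C), acetyl-CoA carboxylase, had 17 in nhp6ab and 19 in WT, on 44 and 47 listed nucleosomes in nhp6ab and WT. CSF1 had 17 in nhp6ab and 16 in WT, HOB2 had 16 and 19 in nhp6ab and WT, and GCN1, the activator of the kinase Gcn2, had 16 in nhp6ab and 13 in WT. DYN1, the dynein heavy chain, had 15 in nhp6ab and 24 in WT. By gene length, the share was 33.5% in nhp6ab and 29.2% in WT for ORFs of up to 500 bp, 29.7% in nhp6ab and 27.1% in WT for those over 500 and up to 1000 bp, and 41.8% and 42.6% in nhp6ab and WT for those over 4000 bp.

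Of the 6 largest gains in nhp6ab, 4 lay in genes with at most 1 pair in WT. PUT4 (YOR348C, chromosome XV, 986899 to 988782), the proline permease, had 9 pairs in nhp6ab and 0 in WT. Its 17 nucleosomes in nhp6ab had 21 to 227 counts, median 92, and its 13 in WT had 167 to 410, median 251. The unbroken run in its ORF had 109, 56, 39, 46, 27 and 21 counts in nhp6ab, so these alternatives rest on few reads. SUN4 (YNL066W, chromosome XIV, 501515 to 502777), a cell wall protein of the SUN family, had 7 pairs in nhp6ab and 0 in WT. All 10 of its nucleosomes overlapped in nhp6ab, with 111 to 325 counts, median 254. None of its 9 in WT did, with 194 to 390 counts, median 241. Both medians lay below those of all listed nucleosomes, 354 counts in nhp6ab and 442 in WT. MDL1, a mitochondrial ABC transporter on chromosome XII, had 8 in nhp6ab and 1 in WT, RGC1, a regulator of the glycerol channel Fps1, had 10 and 3 in nhp6ab and WT, PDR15, an ABC transporter, had 12 and 5, and HBT1 had 8 and 1.

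The 6 largest losses in nhp6ab were of 9 to 14 pairs, against 7 to 9 for the 6 largest gains, and lay mostly in long genes. VPS13 (YLL040C, chromosome XII, 54211 to 63645), a lipid transfer protein between membranes, had 7 pairs in nhp6ab and 21 in WT. It had 47 nucleosomes of 398 to 646 counts in nhp6ab and 61 of 311 to 663 counts in WT. These counts are not scaled to the table totals. Shared pairs of chromosome XII, on which VPS13 lies, had a median log2 ratio of 0.44 of nhp6ab over WT. How far that shift enters the counts of VPS13 was not tested. TRA1 (YHR099W, chromosome VIII, 302761 to 313995), the activator-binding subunit of SAGA and NuA4, had 10 in nhp6ab and 22 in WT. NTE1, a phospholipase, and TAO3, a protein of cell morphogenesis, each had 5 in nhp6ab and 16 in WT. RLM1 (YPL089C, chromosome XVI, 379120 to 381150), the MADS-box factor of the cell wall integrity pathway, had 1 in nhp6ab and 10 in WT, and 2 of 13 nucleosomes overlapped in nhp6ab against 17 of 19 in WT. PLB3 (YOL011W, chromosome XV, 305349 to 307409), a phospholipase B, had 0 in nhp6ab and 9 in WT, and 1 of 14 nucleosomes overlapped in nhp6ab against 15 of 18 in WT. In PLB3 the counts were 115 to 477 in nhp6ab and 179 to 505 in WT.

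**Figure D4:**
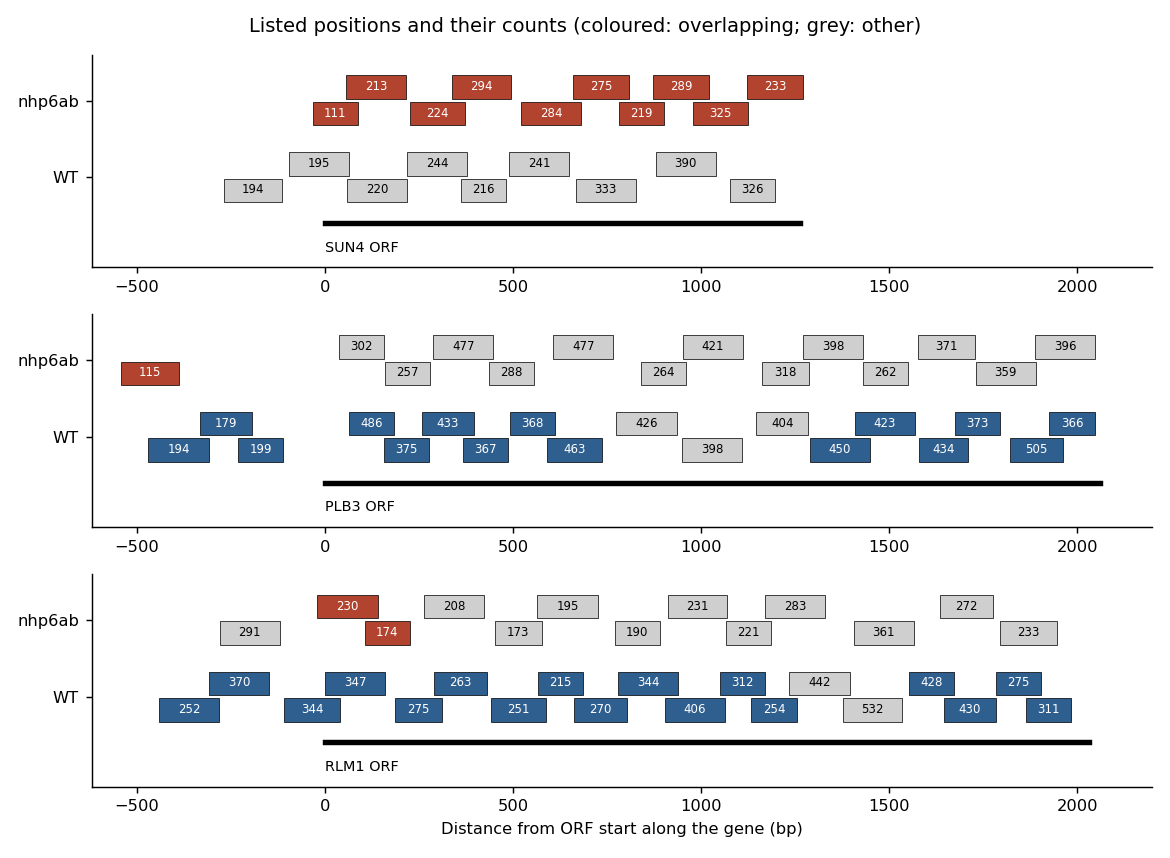
Listed nucleosomes (boxes, with their read counts) at SUN4, PLB3 and RLM1 by distance from the ORF start along the gene (bp), nhp6ab above WT in each panel; the black bar is the ORF and neighbouring boxes alternate in height. Coloured boxes overlap a neighbour by 20 bp or more, which may lie outside the stretch drawn: 10 of 10 at SUN4 in nhp6ab against 0 of 9 in WT, and 1 of 14 at PLB3 in nhp6ab against 15 of 18 in WT.

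The level of the overlapping share differed among gene groups, which also differed in gene length. Median length was 399 bp for core histone genes, 771 bp for ribosomal protein genes, 1920 bp for stress genes and 2670 bp for remodeler genes. It was 1386 bp for glycolysis and fermentation genes and 1483.5 bp for meiosis and sporulation genes. How far length enters these levels was not tested. No intervals were computed for the groups, some of which hold few positions. Over all protein-coding genes the overlapping share was 35.1% in nhp6ab and 33.0% in WT. Glycolysis and fermentation genes had 47.1% in nhp6ab and 43.8% in WT, with more pairs in nhp6ab for 9 of 22 genes and fewer for 7. Among them PFK1 (a phosphofructokinase subunit) had 10 pairs in nhp6ab and 6 in WT, PFK2 had 6 and 7, and CDC19 (pyruvate kinase) had 8 in nhp6ab and 3 in WT. Heat shock and stress genes had 47.0% in nhp6ab and 42.6% in WT, with more pairs for 11 of 25 and fewer for 7. GSY2 (glycogen synthase) had 10 pairs in nhp6ab and 4 in WT, TSL1 (a trehalose synthase subunit) had 11 and 7, and HSP104 (a disaggregase) had 7 and 5. Meiosis and sporulation genes, which are silent in rich medium, had 26.4% in nhp6ab and 25.5% in WT.

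Ribosomal protein genes had 32.7% in nhp6ab and 30.8% in WT, with more pairs in nhp6ab for 44 of 138 genes and fewer for 38. RPS2 and RPS13 each had 4 pairs in nhp6ab and 3 in WT. Phosphate genes had 41.7% in nhp6ab and 36.3% in WT, where PHO89, a phosphate transporter, had 7 pairs in nhp6ab and 4 in WT, and PHO81, a kinase inhibitor of the phosphate pathway, had 2 and 8. Galactose genes had 32 overlapping positions of 94 (34.0%) in nhp6ab and 20 of 92 (21.7%) in WT, with more pairs in nhp6ab for 4 of the 7 genes found and fewer for none. GAL4, the activator, had 5 pairs in nhp6ab and 4 in WT, GAL80, its inhibitor, had 3 and 2, and GAL1, galactokinase, had 2 in each. Core histone genes had 19 of 57 (33.3%) in nhp6ab and 10 of 51 (19.6%) in WT, with more pairs for 5 of 11 genes and fewer for 2. At HHT2 (YNL031C), an H3 gene, the overlapping positions had 333, 255 and 226 counts in nhp6ab, and in WT the one overlapping position had 446.

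Groups of genes whose products act on the mark or on nucleosomes showed no common direction. Genes of SAS and NuA4 had 55 of 162 (34.0%) in nhp6ab and 66 of 182 (36.3%) in WT, with 4 of 12 genes higher and 4 lower in pairs. TRA1, named above for its loss, is in this group and weighs heavily on its shares. It held 20 of the 55 overlapping positions in nhp6ab and 38 of the 66 in WT. EPL1, a NuA4 subunit, had 6 pairs in nhp6ab and 3 in WT, and EAF1, another, had 2 in nhp6ab and 4 in WT. SIR genes and relatives of SIR2 had 30.5% in nhp6ab and 30.6% in WT, where SIR4 had 4 pairs and 5. Remodeler genes had 35.0% in nhp6ab and 32.4% in WT, among them SWR1 with 5 pairs in nhp6ab and 11 in WT, SNF2 with 5 and 9, and CHD1 with 7 and 6. NHP6 and FACT genes had 40.5% in nhp6ab and 40.9% in WT, with 6 pairs at SPT16 in nhp6ab and 4 in WT, and 2 and 3 at POB3. Each group's neighbouring genes share positions, so a pair can count for more than 1 gene.

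Of the classes of position compared here, the widest difference lay beside tRNA genes, short genes transcribed by RNA polymerase III and bound by TFIIIC and TFIIIB. Within 250 bp upstream of tRNA genes 34 of 125 nucleosomes overlapped in nhp6ab (27.2%, 19.6 to 35.9), and 9 nucleosomes of a similar number in WT (7.09%, 3.29 to 13.03). Between 500 and 250 bp upstream the share was 28.2% in nhp6ab (21.7 to 35.5) and 16.7% in WT (11.7 to 22.7). Over the first 250 bp from the tRNA gene start it was 18.0% in nhp6ab (13.7 to 22.9) and 10.7% in WT (7.41 to 14.7). At 250 to 500 bp downstream it was 34.5% in nhp6ab (29.0 to 40.4) and 26.0% in WT (21.1 to 31.5). At 500 to 1000 bp downstream it was 31.1% in nhp6ab and 28.8% in WT, with overlapping intervals. Overall 26.8% of 867 nucleosomes within 500 bp of a tRNA gene start overlapped in nhp6ab, and 16.3% of 907 in WT. Both tables thus had fewer alternatives beside tRNA genes than over all listed nucleosomes, and WT the fewer. In nhp6ab the share was near those of other classes outside ORFs, 28.8% upstream of ORFs and 25.5% in convergent regions. In WT it was below them, at 25.3% upstream of ORFs and 29.3% in convergent regions.

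Counts within 250 bp upstream of tRNA genes were somewhat low, with a median of 299 per nucleosome in nhp6ab and 394 in WT. All listed nucleosomes had medians of 354 in nhp6ab and 442 in WT. The overlapping positions in that window had a median of 280.5 counts in nhp6ab and 382 in WT, against 339 and 412 for all overlapping positions. Over the first 250 bp from the start counts were lower in both tables, with a median of 79 counts per nucleosome in nhp6ab and 142 in WT. Counting only nucleosomes of at least 100 counts, the upstream shares were 26.8% in nhp6ab and 6.56% in WT. With low positions removed before pairing they were 22.3% and 6.56% in nhp6ab and WT. At an overlap of 40 bp or more the upstream difference was 0.83 points in place of 20.1, on 2.40% in nhp6ab and 1.57% in WT. Per gene, counting from 500 bp upstream to the gene end, more pairs were listed in nhp6ab for 32 of 275 tRNA genes, fewer for 12, and the same number, mostly 0, for 231. The tRNA genes with the most pairs over both tables had more in WT at YNCP0011C, 1 in nhp6ab and 3 in WT, and at YNCL0039W, 1 and 2, and more in nhp6ab at YNCM0025C, 2 and 1. tRNA genes are repeated, often beside Ty elements, so where reads were placed among copies is uncertain, and its part in this difference was not tested.

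**Figure D5:**
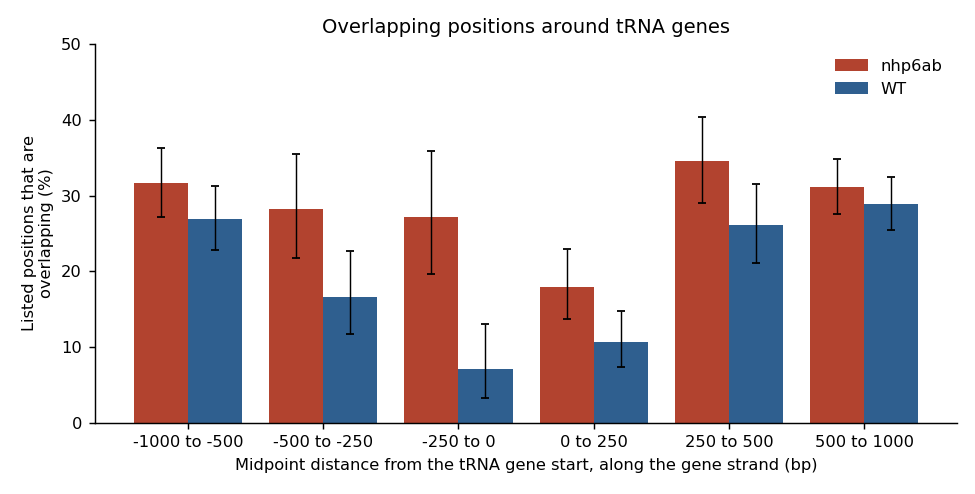
Percent of listed nucleosomes that overlapped a neighbour, by midpoint distance from the tRNA gene start along the gene strand (bp), nhp6ab bars left of WT bars, with 95% counting intervals. In the window just upstream the share was 27.2% in nhp6ab and 7.09% in WT, and at 500 to 1000 bp it was 31.1% and 28.8% in nhp6ab and WT.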

How the data were processed

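Per the labels, H4K16ac chromatin of 4 libraries, 2 per genotype, was sequenced on a HiSeq 2000. Bowtie, FastQC and genome build R64 are named in the submitters' processing notes, with no version. Which program called nucleosomes, its filters and how replicates were merged is not given in the sources used here. The authors deposited 1 table per genotype giving for every nucleosome its chromosome, both ends and 1 read count, and per the file headers these values are counts, treated as not normalized. Sonicated fragment ends do not mark nucleosome edges. No input library was used here.

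The members and gene lists were chosen with earlier results of these data known. Tables were sorted by chromosome and start with Python 3.11.15, numpy 2.4.6, pandas 2.3.3 and scipy 1.17.1. Figures used matplotlib 3.10.9. Coordinates are as the tables give them. ORFs and RNA genes came from a RefSeq gene table of R64 (6002 nuclear protein-coding genes), whose systematic names give the strand, and 1 gene without a strand in its name was left out of distances. A nucleosome belongs to the class of its midpoint: in an RNA gene, in an ORF by distance from its start, within 500 bp upstream of an ORF, or other intergenic. Shares have exact Clopper-Pearson intervals, and log2 ratios exact conditional binomial intervals after scaling to table totals. Reads in overlaps may enter both partners' counts, which makes the intervals of counts and log2 ratios too narrow. Overlapping positions come in pairs or longer runs and are not independent, so the intervals of their shares are too narrow as well. The planned edgeR test between genotypes was not run, because each table has a single count column for both libraries. Genes named were the 6 with most pairs in each table, the 6 largest gains and 6 largest losses, the 5 highest and 5 lowest ratios of shared pairs, the 5 largest tips in balance each way, and up to 3 genes per list, those with the most pairs. One gene that this rule takes is not reported here. The steps were tested on simulated positions. Alternatives were overlaps of 10 and 40 bp, midpoints at most 127 bp apart, a minimum of 100 counts and leaving out chromosome XII. Others were a 250 bp upstream window, matching within 10 or 40 bp, and scaling to the table median.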

Additional observations from a re-analysis of the deposited data

How the results depend on the processing

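Each value had up to 8 other settings. Of 95 such values for the genome-wide shares, counts and ratios, 40 kept within the counting interval or 1.5 times the count, 54 moved and 1 reversed. Among the shares near gene starts, deep in ORFs and beside tRNA genes, which are not in that number, a further 2 reversed. A nucleosome absent from a table gives no count. The chosen overlap sets the shares, because overlaps just inside and just outside the rule are about equally frequent. The causes of the changes below were not tested, apart from fewer positions being left by a stricter rule.

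At an overlap of 10 bp or more, the share of overlapping positions was 50.5% in nhp6ab and 50.8% in WT, and the difference reversed to −0.34 points. Their share of counts was then 49.2% in nhp6ab and 49.0% in WT, the ratio of median counts 0.942 and 0.915, and shared pairs made up 23.8% of nhp6ab pairs and 22.1% of WT pairs, with 8 called higher and 28 lower. At 40 bp or more, the share of positions was 2.87% in nhp6ab and 2.58% in WT (0.29 points apart), the share of counts 2.76% and 2.44%, the ratio of medians 0.955 and 0.930, and the upstream part 7.85% and 9.29%. The lower partner then held 47.1% in both nhp6ab and WT, shared pairs were 1.67% of nhp6ab pairs and 1.77% of WT pairs, and 0 were called in either direction. The difference 2000 bp and more into ORFs was −2.60 points at 10 bp and reversed to 0.031 points at 40 bp and to 0.30 by midpoints.

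By midpoint distance, the share of positions was 38.7% in nhp6ab and 34.3% in WT (4.46 points apart), the share of counts 36.3% and 31.3%, the ratio of medians 0.889 and 0.858, the lower partner's part 45.5% in both, shared pairs 18.0% of WT pairs, and 5 pairs were called higher. With nucleosomes under 100 counts removed, the share of counts was 34.3% in nhp6ab and 31.9% in WT, the upstream part in nhp6ab 7.80%, the lower partner's part in nhp6ab 45.9%, and 1 pair was called lower. Without chromosome XII, the share of counts in WT was 31.7%, the median log2 ratio of shared pairs 0.084, and 2 pairs were called higher. With a 250 bp upstream window, 5.18% of overlapping positions in nhp6ab and 5.35% in WT were upstream. Matching within 10 bp left 8.41% of nhp6ab pairs and 8.42% of WT pairs shared and 6 called lower, and matching within 40 bp gave 26.2% of either list shared, 3 called higher and 23 lower. Scaling to the table median moved the median log2 ratio of shared pairs to 0.0016.

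No paired analysis was possible because each table holds a single count column for both libraries of a genotype. For the same reason the edgeR test, DESeq2 and leaving out each replicate were not run.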
